A study of Mus musculus with 6 samples.

Results

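The AMPA and kainate receptor subunits are the products of 9 genes, Gria1 to Gria4 and Grik1 to Grik5, chosen by name from a deposited table of 56748 genes. All 9 passed the filter on low counts and stood among the 17584 genes tested. The 6 RNA-seq libraries came from brains of male wild-type C57 mice with a photothrombotic stroke, in which laser light on the left hemisphere sets off clotting after an intravenous agent. PLEA nanoparticles were injected into the tail vein of the mice behind 3 libraries, and saline into that of the mice behind the other 3, in each case 2 hours after the stroke. The tissue label is Brain, with no region given, and both groups carry the batch label Day 3. Both groups had the stroke, so the values set one treatment against the other and not stroke against health. The labels do not spell out PLEA, give the age of the mice or state that each library came from its own animal, so a p-value here reflects how far these libraries scatter, which may be technical.

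AMPA receptors carry most fast excitatory transmission between cortical neurons, as tetramers of GluA1 to GluA4. Those that contain GluA2, the product of Gria2, let little calcium through, because the Gria2 transcript is edited at a glutamine codon in the pore that then reads as arginine. Kainate receptors act on both sides of the synapse and are built from GluK1 to GluK3, which can form channels by themselves, and from GluK4 and GluK5, which need one of those as a partner. In ischaemia glutamate accumulates outside cells and opens both receptor classes, and a fall of Gria2 in rodent hippocampus after global ischaemia is a known route to calcium entry.

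The pore stretches below show where that edited codon lies and how alike the subunits are there. They are coding sequence of GENCODE M21 transcripts (build GRCm38), 45 bases each, 5′ to 3′ on the transcript, with the codon at the Q/R position in capitals.
Gria1: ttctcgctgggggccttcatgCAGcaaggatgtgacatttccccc
Gria2: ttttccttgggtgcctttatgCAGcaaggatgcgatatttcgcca
Gria3: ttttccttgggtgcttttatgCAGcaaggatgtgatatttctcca
Gria4: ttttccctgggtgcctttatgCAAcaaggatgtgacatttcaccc
Grik1: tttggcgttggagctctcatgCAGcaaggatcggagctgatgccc
Grik2: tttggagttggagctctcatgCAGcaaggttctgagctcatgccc
Grik3: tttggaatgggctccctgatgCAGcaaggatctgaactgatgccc
Grik4: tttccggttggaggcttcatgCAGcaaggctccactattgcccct
Grik5: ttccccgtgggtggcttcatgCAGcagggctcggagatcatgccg
Gria4 carries CAA at this position and the other subunits carry CAG. The AMPA stretches matched each other at 36 to 42 of 45 bases over 6 pairs, the kainate stretches at 24 to 41 over 10 pairs, and an AMPA and a kainate stretch at 27 to 31 over 20 pairs. The Gria2 codon lies at chr3:80706911-80706913 on the minus strand, in exon 11 of 16, and the Gria1 codon at chr11:57243094-57243096 on the plus strand, also in exon 11 of 16. These positions are not on the coordinates of the deposited table, whose build could not be settled: the codons of Gria1, Gria3, Grik3 and Grik5 fall outside the spans it gives for those genes. Counts per gene do not show whether a transcript was edited.

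The likeness of the subunits bears on the counting. Of the 50-base words in the transcripts of each subunit gene, at most 0.733% (Gria2) also occurred in transcripts of another gene, and Gria1 shared none. Genes whose spans overlap a subunit gene in the deposited coordinates held at most 0.392% as many counts as the subunit, the highest case being the same-strand gene Gm47017 at Grik2.

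Totals were 17357781 to 17484650 counts in PLEA libraries and 16810448 to 17516434 in saline libraries. The cortical excitatory genes Slc17a7 and Tbr1 were detected in all 6 libraries but varied, from 586 to 1251 CPM and from 118 to 175 CPM. Saline replicate 2 was the lowest library for both. Among 8 excitatory neuron markers it was the lowest for 4 and the highest for 1. Markers of other tissue also varied between libraries. The summed level of 9 striatal projection neuron markers was 1046 to 2248 CPM in PLEA libraries and 239.5 to 2283 CPM in saline libraries, and saline replicate 2 was the lowest library for 9 of the 9. CPM is a count divided by the size of its library, on the usual CPM scale, after TMM factors that align the bulk of genes between libraries. Saline replicate 2 was also the highest for 6 of 6 myelin markers, and Slc17a6, the glutamate transporter of subcortical excitatory neurons, was at 284 CPM there against 22.4 to 37.8 CPM in the other 5 libraries. Saline replicate 1 was the highest for 8 of 8 microglia and macrophage markers and for 8 of 8 astrocyte markers. PLEA replicate 2 was the lowest for 7 of 8 in each of these lists. In each list all 8 log2 fold changes, PLEA over saline, were negative, and 0 had an edgeR adjusted p under 0.05. Meningeal fibroblast markers summed to 45.8 to 62.1 CPM in PLEA and 101 to 142 CPM in saline, without overlap, and choroid plexus markers reached 329 CPM in PLEA replicate 3 against 5.57 to 36.2 CPM elsewhere; the part of either in the values that follow was not tested. Pan-neuronal markers summed to 7252 to 8959 CPM in PLEA and 7662 to 8744 CPM in saline. In such bulk tissue, fewer cells of a type and less RNA per cell cannot be told apart.

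No subunit gene passed the test between PLEA and saline. In edgeR's quasi-likelihood test with Benjamini-Hochberg adjustment over all tested genes, 0 of 9 subunits had an adjusted p under the threshold of 0.05, against a background of 0% of all genes called higher and 0% called lower. At an unadjusted p under 0.05 the count was also 0 of 9 subunits, against 5.86% of all genes. DESeq2 and limma voom also called 0 of 9. Over all 17584 genes DESeq2 called 3 higher and 36 lower, and limma voom called 0 in each direction. Log2 fold changes were positive for 7 subunits, where 49% of all tested genes were positive, and negative for Gria4 and Grik1. The median over the 9 was 0.16, beside -0.0051 over all tested genes, and the median size without sign was 0.23, beside 0.16 over all tested genes. Gria2 had no overlap between groups, with PLEA higher, and the other 8 subunits overlapped. Non-overlap with PLEA higher held for 5.16% of all tested genes, so 1 of 9 is near that background.

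**Figure D1:**
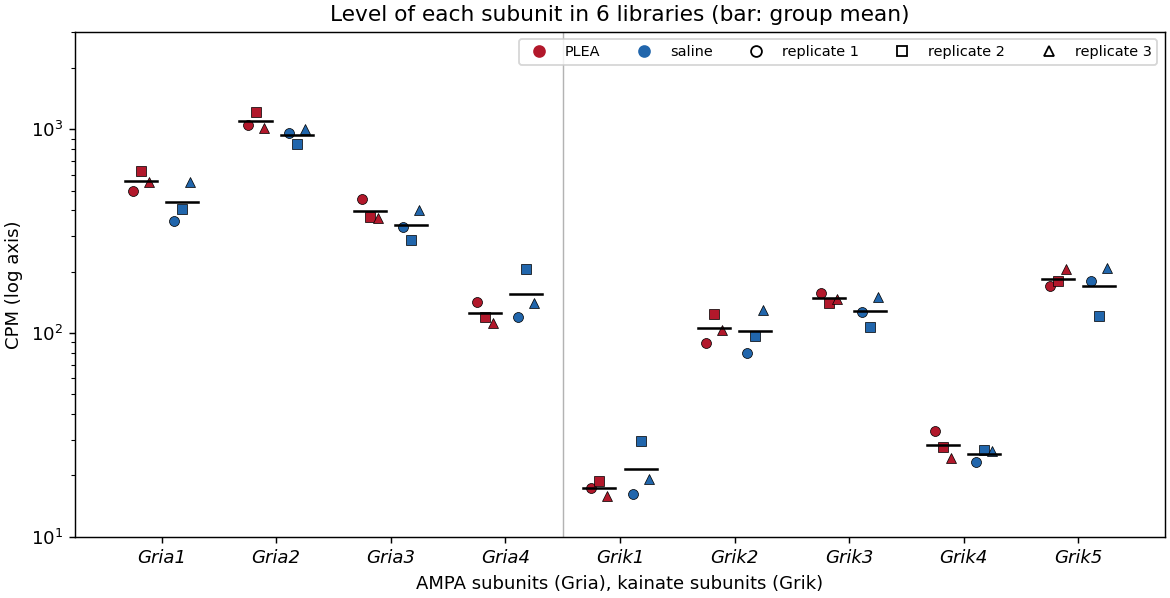
CPM (log axis) of each subunit gene in each library, with PLEA in red left of saline in blue, marker shape for the replicate number and a bar for the mean of 3. The 3 PLEA points of Gria2 (1022 to 1219 CPM) lie above the 3 saline points (851 to 1000.4 CPM), and the saline replicate 2 square stands above the other libraries for Gria4 and Grik1.

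Gria2 and Gria1, the partners of the most common AMPA receptor of cortical and hippocampal pyramidal cells, were the subunits with the most counts. Gria2 was at 1051, 1219 and 1022 CPM in PLEA replicates 1 to 3 and at 962, 851 and 1000.4 CPM in saline replicates 1 to 3. The gap between the lowest PLEA and the highest saline library was smaller than the SD of either group. Means were 1097 ± 107 CPM in PLEA and 938 ± 77.6 CPM in saline (SD, n = 3 each). On the log2 scale the difference was 0.23 (SE 0.14, edgeR adjusted p = 0.833), with a 95% interval from -0.09 to 0.55, and 38.5% of all tested genes differed by at least as much in either direction. The difference was 0.14 without PLEA replicate 2 and 0.16 without saline replicate 2.

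Gria1, whose product is delivered to synapses during plasticity, was at 499.6, 623 and 555 CPM in PLEA and at 354, 407 and 554 CPM in saline. The groups met at PLEA replicate 1, which lay below saline replicate 3. Means were 559 ± 61.7 CPM in PLEA and 438 ± 104 CPM in saline (SD, n = 3 each), and the log2 fold change of 0.35 (SE 0.19, edgeR adjusted p = 0.818) was the largest in size of the 9. Its 95% interval ran from -0.07 to 0.78. Across all tested genes 24.5% had a log2 fold change at least that large in size. Saline replicate 1, the library with the most microglial and astrocyte RNA, was the lowest for Gria1, and without it the log2 fold change was 0.23. PLEA replicate 2, the lowest for most markers of those cells, was the highest for Gria1. Without PLEA replicate 2 the log2 fold change was 0.27. Saline replicate 2, the next lowest for Gria1, was at -0.36 for microglia and macrophage markers and 0.07 for astrocyte markers (mean log2 CPM, centred over the libraries). On that scale striatal projection neuron markers were at -0.15, 0.999 and 0.76 in PLEA and at -0.22, -2.43 and 1.03 in saline. The part of any of these cells in the difference was not tested. Without saline replicate 3 the log2 fold change was 0.54 (edgeR unadjusted p = 0.0108, adjusted p = 0.549), and without saline replicates 1 and 2 together it was 0.02.

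Gria3, which pairs with GluA2 in many other cortical AMPA receptors, was at 454, 371 and 368 CPM in PLEA and at 331, 287 and 402 CPM in saline. PLEA replicate 1 was the highest and saline replicate 2 the lowest, while saline replicate 3 lay above 2 of the PLEA libraries. The log2 fold change was 0.23 (SE 0.16, edgeR adjusted p = 0.844), or 0.11 without PLEA replicate 1, 0.12 without saline replicate 2 and 0.35 without saline replicate 3.

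Gria4, which is abundant in parvalbumin interneurons and in thalamus, ran the other way. It was at 142, 119.6 and 113 CPM in PLEA and at 119.7, 205 and 140.2 CPM in saline. Saline replicate 2 stood apart and the other 5 libraries lay within 113 to 142 CPM. The log2 fold change was -0.31 (SE 0.20, edgeR adjusted p = 0.841) over all libraries, -0.06 without saline replicate 2 and -0.46 without saline replicate 1 (edgeR unadjusted p = 0.0412, adjusted p = 0.836). The same library had the highest Pvalb level, 30.4 CPM against 11.3 to 21.6 CPM elsewhere, and the Slc17a6 level given above. Of 8 inhibitory neuron markers Pvalb was the 1 highest in that library, and 2, Sst and Npy, were lowest there. The part of the cells behind either marker in the Gria4 value was not tested.

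Among the kainate subunits that form channels by themselves, Grik1 followed Gria4. Grik1 was at 17.3, 18.8 and 15.9 CPM in PLEA and at 16.1, 29.4 and 19.3 CPM in saline. Saline replicate 2 was again the high library, and the log2 fold change of -0.32 (SE 0.22, edgeR adjusted p = 0.842) was -0.04 without it. Without saline replicate 1 it was -0.49 (edgeR unadjusted p = 0.0452, adjusted p = 0.836). The lowest library held 275 counts of Grik1, a counting error of 6.03%, and the gap of saline replicate 2 to the next library was larger than that.

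Grik2, the main kainate subunit of hippocampal and many cortical synapses, was at 88.9, 124 and 103 CPM in PLEA and at 79.4, 97.0 and 129.6 CPM in saline. The groups lay over each other, with means of 105 ± 17.7 CPM in PLEA and 102 ± 25.4 CPM in saline (SD, n = 3 each). Its log2 fold change of 0.05 (SE 0.20, edgeR adjusted p = 0.976) was the smallest in size of the 9 and turned to -0.10 without saline replicate 1 and to -0.09 without PLEA replicate 2; leaving out PLEA replicate 1 gave 0.15, and leaving out saline replicates 2 and 3 in turn gave 0.01 and 0.24. Grik3, whose product needs unusually high glutamate levels to open, was at 158, 141 and 147 CPM in PLEA and at 127, 108 and 151 CPM in saline. Saline replicate 3 lay among the PLEA libraries, and the log2 fold change was 0.21 (SE 0.14, edgeR adjusted p = 0.842), or 0.09 without saline replicate 2 and 0.33 without saline replicate 3.

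The partner subunits GluK5 and GluK4 bind kainate with high affinity. Grik5 was at 169, 180.1 and 206 CPM in PLEA and at 181, 122 and 209 CPM in saline. Saline replicate 3 was the highest library and saline replicate 2 stood below the other 5. The log2 fold change of Grik5 was 0.12 (SE 0.20, edgeR adjusted p = 0.926) and turned to -0.08 without saline replicate 2, while it was 0.04 without PLEA replicate 3 and 0.28 without saline replicate 3. Grik4, prominent in the CA3 field of the hippocampus, was at 33.0, 27.4 and 24.4 CPM in PLEA and at 23.2, 26.5 and 26.3 CPM in saline. PLEA replicate 1 was the high library, and the log2 fold change was 0.16 (SE 0.15, edgeR adjusted p = 0.870) or 0.02 without that library and 0.25 without PLEA replicate 3.

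**Figure D2:**
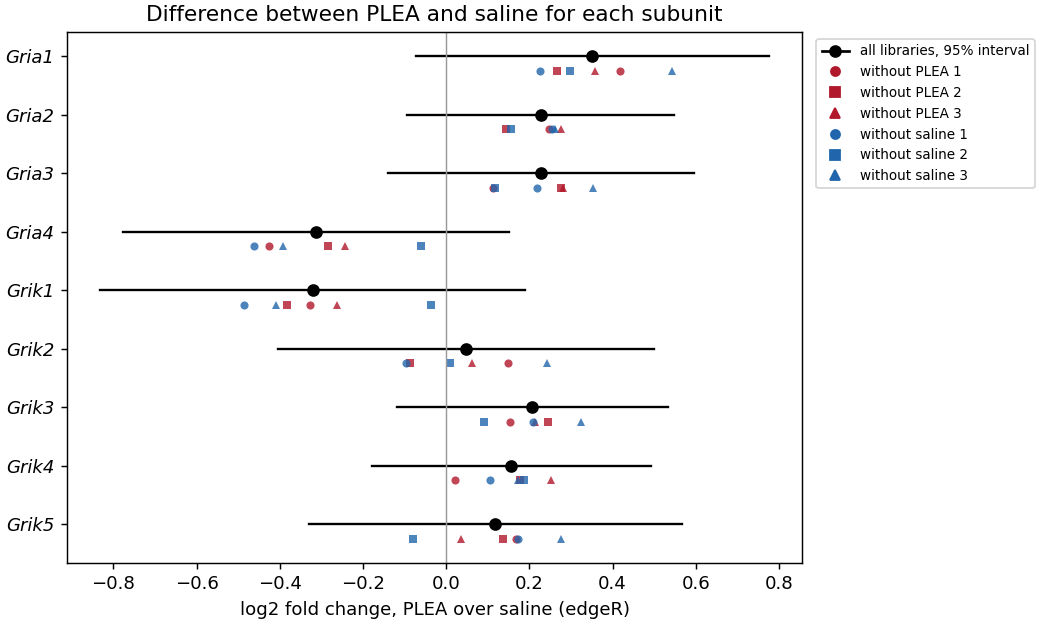
Log2 fold change of each subunit, PLEA over saline, from edgeR with its 95% interval (black), and below it the value with 1 library left out (red for PLEA, blue for saline, shape for the replicate number). All 9 intervals include 0, and without saline replicate 2 (blue square) Gria4 and Grik1 move to -0.06 and -0.04.

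Levels can be compared between genes only per length. Divided by the deposited gene length, Gria1 had 92.5 ± 10.2 CPM per kb in PLEA and 72.5 ± 17.2 CPM per kb in saline (SD, n = 3 each). Gria2 followed with 70.6 ± 6.86 CPM per kb in PLEA and 60.3 ± 4.99 CPM per kb in saline, and Gria3 with 40.4 ± 4.96 in PLEA and 34.5 ± 5.85 in saline. Grik5 was the leading kainate subunit at 35.8 ± 3.62 CPM per kb in PLEA and 33.0 ± 8.62 CPM per kb in saline. Below it came Gria4 (19.8 in PLEA, 24.6 in saline), Grik3 (16.5 in PLEA, 14.3 in saline), Grik2 (7.96 in PLEA, 7.70 in saline), Grik4 (4.74 in PLEA, 4.26 in saline) and Grik1 (2.57 in PLEA, 3.21 in saline), as mean CPM per kb. With these lengths the order of the 9 means was the same in both groups. Neighbours whose ranges overlapped were Gria3 and Grik5 in PLEA, and in saline Gria1 and Gria2, Gria3 and Grik5, Grik5 and Gria4, and Grik4 and Grik1.

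The place of Gria1 above Gria2 depends on the length used. The deposited length of Gria2 is 15548 bases and that of Gria1 6043 bases. With the longest coding transcript in GENCODE M21 (10371 bases for Gria2, 5546 for Gria1), a choice made after seeing the data, Gria2 averaged 106 CPM per kb and Gria1 101 CPM per kb in PLEA, and 90.4 and 79.0 CPM per kb in saline. At the low end, the mean of Grik4 was above that of Grik1 in both groups with the deposited lengths. The transcript lengths kept that order in PLEA (4.804 and 4.734 CPM per kb) and turned it in saline (4.31 and 5.91 CPM per kb). With the transcript lengths, the order of the PLEA means rests on PLEA replicate 1 (5.61 and 4.73 CPM per kb). Grik4 was below Grik1 in PLEA replicate 2 (4.66 and 5.13) and PLEA replicate 3 (4.15 and 4.34), as in each saline library.

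The make-up of the AMPA pool was read as shares, first for Gria2, on which calcium entry turns. Its share of the summed AMPA level per length was 30.9%, 32.9% and 30.9% in PLEA and 35.8%, 29.8% and 29.4% in saline. The PLEA values lay within the saline range, and the difference of means was -0.076 percentage points (exact two-sided permutation p = 1; with 3 libraries a group, p cannot go below 0.1). Gria1 held 37.8%, 43.3% and 43.2% in PLEA and 33.8%, 36.6% and 41.9% in saline, with saline replicate 3 inside the PLEA range. Gria4 held 10.3%, 7.97% and 8.40% in PLEA and 10.98%, 17.7% and 10.2% in saline, where saline replicate 2 was again high and saline replicate 3 lay below PLEA replicate 1. The summed AMPA level per length was 219, 238 and 213 CPM per kb in PLEA and 173, 184 and 219 CPM per kb in saline, overlapping at saline replicate 3.

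Within the kainate pool Grik5 held 50.3%, 51.8% and 56.5% in PLEA and 57.0%, 45.6% and 54.4% in saline. Grik4 and Grik5 together made up 58.6% to 62.3% in PLEA and 54.2% to 63.3% in saline. Grik3 was the 1 member of 9 whose share did not overlap, at 27.0%, 23.30% and 23.25% in PLEA and 23.04%, 23.21% and 22.6% in saline. In CPM Grik3 overlapped, and 5.16% of all tested genes did not overlap with PLEA higher. No such background was computed for shares, and the shares within a pool depend on each other. PLEA replicates 2 and 3 lay next to saline replicate 2, and PLEA replicate 1 stood above the rest. AMPA exceeded kainate transcripts per length by 3.36, 3.54 and 3.02 times in PLEA and by 2.81, 3.55 and 2.95 times in saline, again with overlap. Set against the summed pan-neuronal markers, AMPA counts came to 24.0%, 30.6% and 28.4% in PLEA and 23.1%, 20.02% and 24.3% in saline, and PLEA replicate 1 lay below saline replicate 3.

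**Figure D3:**
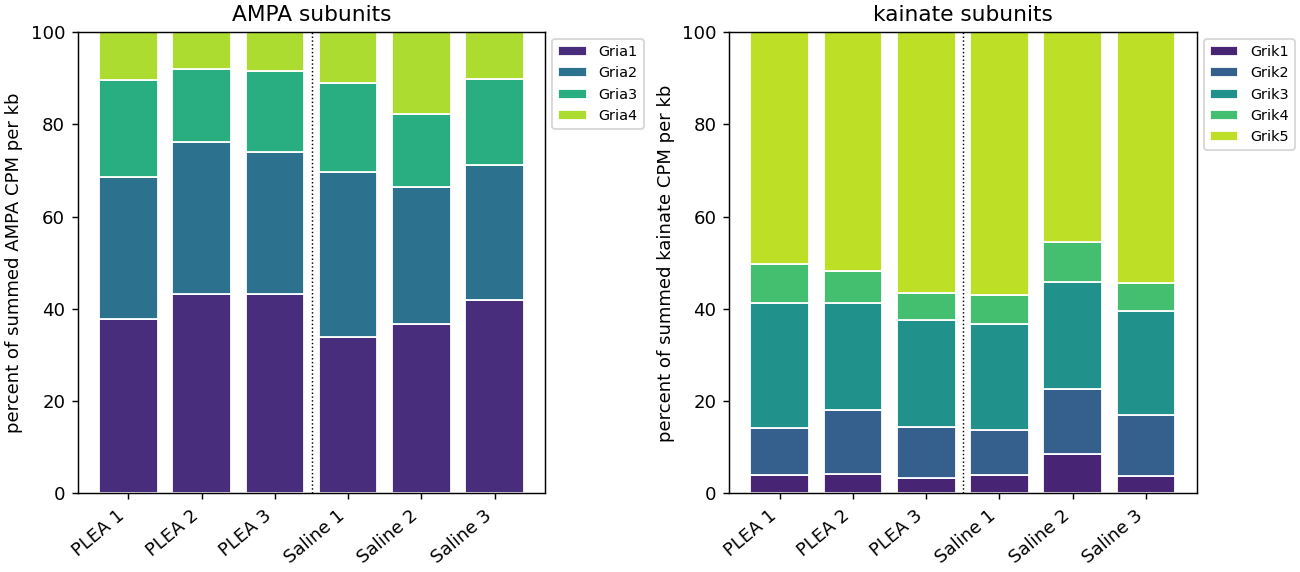
Share of each subunit in the summed CPM per kb of the AMPA subunits (left) and kainate subunits (right), 1 stacked bar per library with PLEA left of saline. Saline replicate 2 has the largest Gria4 share (17.7%) and Grik1 share (8.46%), against at most 10.98% and 4.15% in the other libraries.

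The 9 genes did not move as a block across libraries. Saline replicate 2 was the lowest library for 4 of them (Gria2, Gria3, Grik3 and Grik5) and the highest for Gria4 and Grik1. Saline replicate 1 was the lowest for Gria1, Grik2 and Grik4. Saline replicate 3 was the highest for Grik2 and Grik5, PLEA replicate 1 for Gria3, Grik3 and Grik4, and PLEA replicate 2 for Gria1 and Gria2. Highest and lowest libraries differed by 1.42-fold (Grik4) to 1.85-fold (Grik1).

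**Figure D4:**
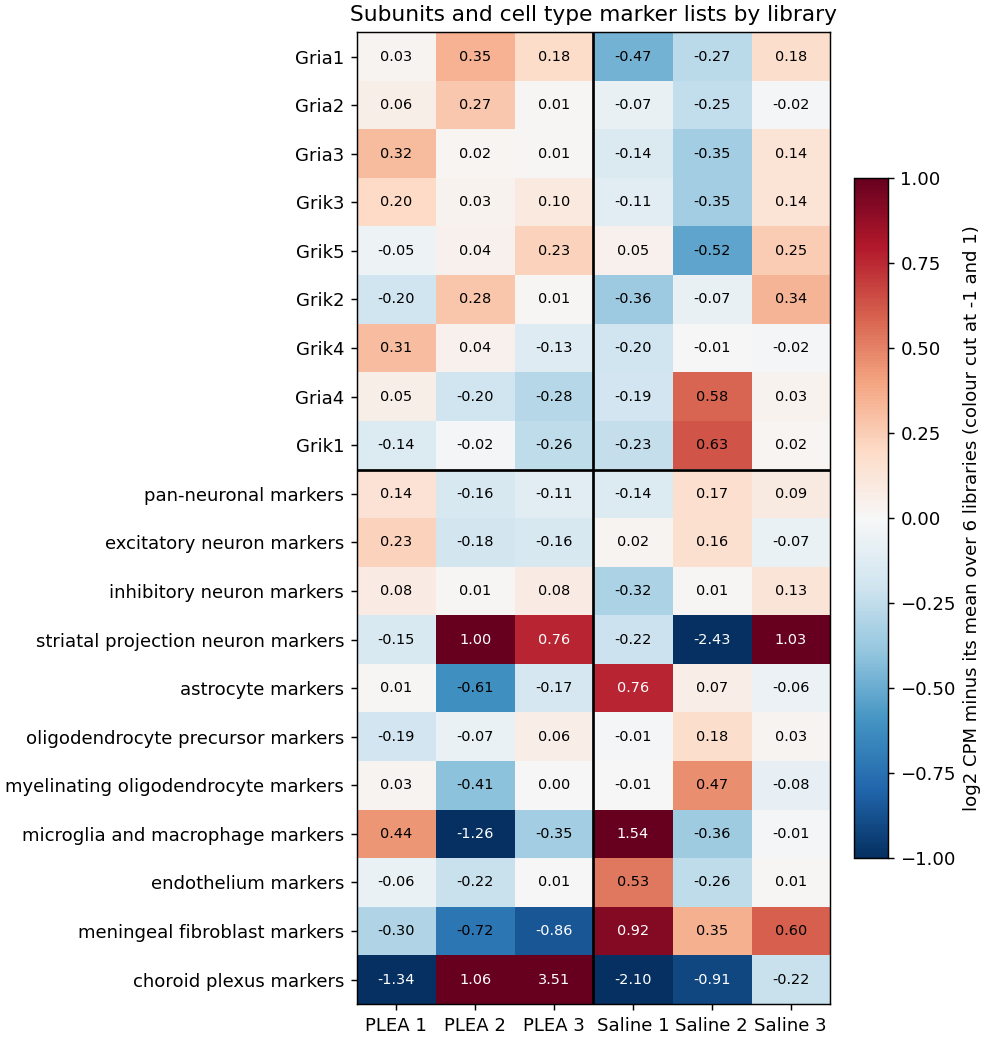
Log2 CPM of each subunit gene (upper rows) and mean log2 CPM of each marker list (lower rows), centred on the mean of the 6 libraries, with PLEA columns left of saline. Saline replicate 2 is at 0.58 for Gria4 and 0.63 for Grik1, at -0.25 to -0.52 for Gria2, Gria3, Grik3 and Grik5, and at -2.43 for striatal markers.

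Likeness of pattern was measured as the root mean square difference between centred log2 CPM values over the 6 libraries, against 13967 other protein-coding genes. Gria3 and Grik3 were the most alike members (0.06 log2). Grik3 was at place 8 among the genes closest to Gria3, and Gria3 at place 22 among those closest to Grik3. Gria4 and Grik1 came next at 0.11, with Grik1 at place 65 for Gria4 and Gria4 at place 63 for Grik1. The closest genes were Ip6k2 and Kctd13 for Gria1, Grpel1 and Ccdc59 for Gria2, Cgref1 and Efcab6 for Gria3, and Sacm1l and Atp8a2 for Gria4, at 0.03 to 0.07 log2. For the kainate subunits they were Crebl2 and Arhgap12 (Grik1), Pm20d2 and Id4 (Grik2), Gmeb1 and Tbcc (Grik3), Ccdc177 and Scrn3 (Grik4), and Ccm2 and Mcrs1 (Grik5), at 0.02 to 0.05 log2. With this many candidates and 6 libraries, close matches describe these libraries only.

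Partner genes of the receptors were read from 7 lists of 59 genes, all of them tested, and 0 passed the edgeR test over all genes. Unadjusted p was under 0.05 for 4 higher and 1 lower, beside 2.28% and 3.58% of all genes. The median log2 fold change over the 59 was 0.07, beside -0.0051 over all tested genes.

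Auxiliary subunits of AMPA receptors, which set gating and surface delivery, had 11 of 15 log2 fold changes positive and a median of 0.14. Shisa7, which encodes a membrane protein that binds AMPA and GABA-A receptors, was at 193, 265 and 251 CPM in PLEA and at 167, 150.0 and 215 CPM in saline (log2 fold change 0.41, SE 0.18, edgeR adjusted p = 0.818). Cacng7, a TARP subunit, was at 128, 117 and 146.3 CPM in PLEA and at 163, 184 and 146.2 CPM in saline (log2 fold change -0.34, SE 0.14, edgeR adjusted p = 0.818). In both genes saline replicate 2 was the library farthest from the PLEA values and saline replicate 3 met the PLEA range. Prrt2 was at 1.06 to 1.68 CPM in PLEA and 0.615 to 0.939 CPM in saline (log2 fold change 0.84, SE 0.36); its value is uncertain, since the same-strand gene Gm42742 spans it and held 382 counts against its 115.

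Genes for assembly in the endoplasmic reticulum had a median of -0.02 over 6 genes. Cpt1c, which binds AMPA receptors during biogenesis, was at 89.3, 86.5 and 105 CPM in PLEA and at 76.2, 72.3 and 85.0 CPM in saline, with no overlap (log2 fold change 0.27, SE 0.12, edgeR adjusted p = 0.818). Sacm1l, a phosphoinositide phosphatase, was at 45.8 to 56.4 CPM in PLEA and 45.9 to 81.0 CPM in saline, highest in saline replicate 2, and Porcn was at a log2 fold change of 0.10 (SE 0.13).

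Anchoring and recycling genes had a median of 0.06 over 13 genes. Gripap1, which works with the scaffold GRIP in receptor recycling, was at 118, 132 and 138 CPM in PLEA and at 96.4, 98.4 and 113 CPM in saline (log2 fold change 0.34, SE 0.12, edgeR adjusted p = 0.818). Pick1, which binds GluA2 and takes part in its internalisation, was at 16.6, 15.8 and 19.4 CPM in PLEA and at 13.5, 13.2 and 14.03 CPM in saline (log2 fold change 0.35, SE 0.15, edgeR adjusted p = 0.818). Neither gene overlapped between groups. The span of Pick1 is shared in part by the same-strand gene Gm49486, which held 52 counts against 1600 of Pick1. The retromer adaptor gene Snx27 ran the other way without overlap, at 145 to 150.4 CPM in PLEA and 162 to 192 CPM in saline (log2 fold change -0.23, SE 0.11). Non-overlap was counted for 4 of 59 partner genes with PLEA higher, the uncertain Prrt2 among them, and for 1 with PLEA lower. These are 6.78% and 1.69%, beside 5.16% and 5.54% of all tested genes.

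Pentraxins and secreted organisers, which cluster receptors from outside the cell, had a median of 0.02 over 10 genes. C1ql2, an organiser of hippocampal mossy fibre synapses that binds kainate receptors, reached 16.6 CPM in saline replicate 2 and lay between 0.693 and 2.79 CPM in the other 5 libraries, so its log2 fold change of -2.08 (SE 1.03, edgeR adjusted p = 0.818) rests on that library. The log2 fold change of Olfm3 was -0.20 (SE 0.16) and that of the activity-induced pentraxin gene Nptx2 was 0.38 (SE 0.38). The kainate auxiliary genes Neto1 and Neto2 were at 0.26 (SE 0.21) and -0.09 (SE 0.14). Neto1 was lowest in saline replicate 2, at 114 CPM, beside 167 to 219.5 CPM in the other libraries.

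Adarb1, which encodes the enzyme that edits the Gria2 codon shown above, was at 219.8, 199.8 and 197 CPM in PLEA and at 210.1, 274 and 241 CPM in saline. PLEA replicate 1 lay above saline replicate 1, and the log2 fold change was -0.23 (SE 0.13, edgeR adjusted p = 0.823). Adarb2 was at -0.14 (SE 0.24) and Adar at 0.03 (SE 0.16), and the span of Adar overlaps the opposite-strand gene Chrnb2 over 7252 bases, so reads of Chrnb2 among its counts cannot be told apart without strand. Kinases and phosphatases that act on the receptors had a median of 0.11 over 10 genes, with log2 fold changes from -0.03 to 0.15. Ppp3ca, a catalytic subunit of calcineurin, was at 0.14 (SE 0.16), Camk2b at 0.12 (SE 0.16) and Ppp1ca at 0.15 (SE 0.20). In 8 of these 10 genes saline replicate 2 was the lowest library.

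**Figure D5:**
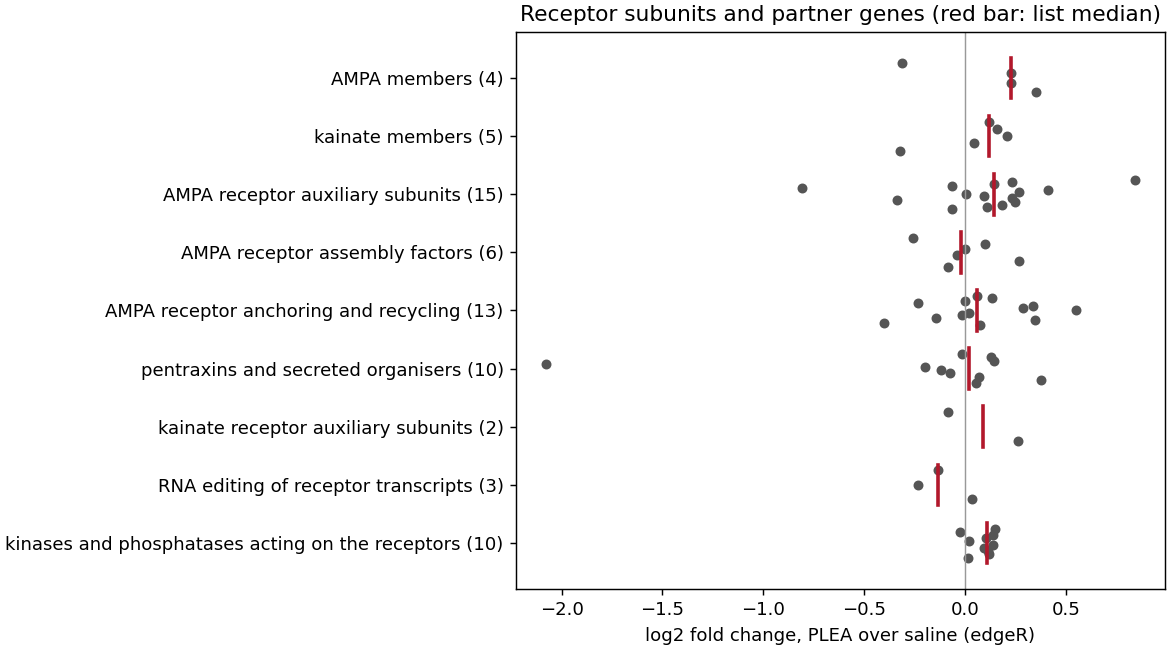
Log2 fold change, PLEA over saline, of each subunit gene and each partner gene (grey points) by list, with the list median as a red bar and the number of genes in brackets. List medians lie between -0.14 and 0.23, and the lowest point is C1ql2 at -2.08.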

How the data were processed

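The authors deposited raw counts of reads per gene, with gene lengths in bases, for 6 libraries in a single table, and the counts are whole numbers with no normalization. The submitters' processing notes name the builds GRCm38 and mm10, but the deposited gene coordinates do not match GENCODE M21 on GRCm38. The sources used here give no aligner, counting tool or strand setting. Samples were grouped by title. The main test was edgeR 4.0.16 in R 4.3.3 (filterByExpr, TMM, quasi-likelihood), fitted with the treatment group alone, and p-values were adjusted by Benjamini-Hochberg over 17584 genes. Each standard error was derived from the log2 fold change and its F statistic. Alternatives used DESeq2 1.42.0, limma 3.58.1 (voom), other factors and filters, a replicate block and left-out libraries. Members and gene lists were chosen with earlier results of these data known. Named partner genes are the 3 with the smallest p in each list, and like-patterned genes are the 2 closest to each subunit (mean CPM of at least 1). Sequences were read from GENCODE M21 transcripts. On simulated counts for 17584 genes in this comparison, the share of altered genes that edgeR called was 1.49% at 1.5-fold, 35.8% at 2-fold and 83.3% at 4-fold. The smallest chi-square per degree of freedom between a pair of libraries was 11.8, so no pair matched within sampling noise. That pair was saline replicate 3 and PLEA replicate 1. Saline replicate 3 was closer to PLEA replicates 1 to 3 (11.8, 14.8 and 15.9) than to saline replicates 1 and 2 (25.9 and 32.1). Counting errors cover counting only.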

Additional observations from a re-analysis of the deposited data

How the results depend on the processing

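Over 16 alternatives 0 of 9 subunits passed the threshold in each direction (smallest adjusted p 0.549). Of 144 subunit values, 137 kept their direction and 7 turned. With saline replicates 1 and 2 both left out, the log2 fold change was -0.0018 for Gria3, -0.29 for Grik2, -0.014 for Grik3 and -0.17 for Grik5; the lone saline library is then taken to be as variable as PLEA. Leaving out 1 library moved Grik2 between -0.096 and 0.24, turning without saline replicate 1 and without PLEA replicate 2 (-0.087), and Grik5 between -0.079 and 0.28, turning without saline replicate 2. No sign turned with RLE, upper-quartile or pan-neuronal scaling, and with the last Gria1 was at 0.45 (edgeR unadjusted p = 0.0383, adjusted p = 0.905). Unadjusted p was also under 0.05 for Gria1 without saline replicate 3 (0.0108) and for Gria4 (0.0412) and Grik1 (0.0452) without saline replicate 1. Same-number libraries had correlated deviations of 0.37, 0.17 and -0.018 and not every library was closest to its own number, so the numbers were not taken as pairs. With the replicate block 0 subunits passed, Gria1 being at 0.37 and Gria4 at -0.28.

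Over all genes, edgeR and limma voom called 0 higher and 0 lower. The calls were 3 higher with 36 lower in DESeq2, and 7 higher with 31 lower in edgeR when no filter was used; the cause was not tested. With any 1 library omitted, 0 to 0 genes were higher and 0 to 1 lower, and omitting saline replicates 1 and 2 gave 2 lower. The difference in Gria2 share ranged from -1.21 to 1.99 percentage points with 1 library left out, and was 0.026 on counts with no length, 0.0045 with coding transcript lengths (chosen after seeing the data) and -0.076 with the replicate block. Depth limits Grik1 and Grik4 most, with counting errors up to 6.03% and 5.03%.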
